A study of Homo sapiens and Mus musculus with 13 samples.

Results

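R-loops, in which an RNA strand pairs with its DNA template and leaves the other DNA strand unpaired, were described at 6 genes of glycolysis in 2 human cell lines: GAPDH, ENO1, ALDOA, PKM, TPI1 and LDHA. The genes were fixed by name and by hg19 interval, not by any measured value, and every listed peak lying within 5 kb of an interval was taken. That gave 145 of the 325035 peaks in 6 human lists. NT2 was derived from a human embryonal carcinoma and keeps features of pluripotent cells. K562 comes from a chronic myeloid leukaemia. Both are established lines, and the labels name no genetic change in either. DRIP-seq cuts genomic DNA with restriction enzymes, recovers RNA:DNA hybrids with an antibody and sequences the DNA without strand, while DRIPc-seq sequences the RNA of the hybrids and so gives each peak a strand.

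The first 4 lists came from DRIP-seq of NT2: untreated DNA cut with digest A (HindIII, EcoRI, BsrGI, XbaI, SspI), untreated DNA cut with digest B (BamHI, NcoI, ApaL1, NheI, PvuII), and DNA labelled RNaseA or RNaseH. The remaining lists were DRIPc-seq of NT2 and DRIP-seq of K562. Every list but that of digest B used the enzymes of digest A, and only the RNase A and RNase H lists carry a treatment in their labels. RNase A cuts unpaired RNA, and RNase H destroys RNA that is paired with DNA. Each list stood for 1 sample, except that of DRIPc-seq, which is the single list given for 2 samples, so no value below has a replicate error and no test across samples could be made. Cell lines, enzymes and RNase treatments cannot be told apart from differences between libraries. The lists hold positions with no read counts, so depth is unknown, a gap means only that no peak was listed there, and neither cell line could be checked against marker genes. List sizes ran from 8998 peaks (RNase H) to 88310 peaks (DRIPc-seq), and median peak lengths from 826.5 bp (RNase H) to 2841 bp (digest B).

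Glycolysis splits glucose into pyruvate in the cytosol, and its enzymes are made in large amounts by most dividing cells. Aldolase A (ALDOA) splits the phosphorylated hexose into triose phosphates, triosephosphate isomerase (TPI1) converts one triose into the other, and GAPDH oxidises the triose phosphate. Enolase (ENO1) and pyruvate kinase (PKM) carry out later steps that lead to pyruvate, and lactate dehydrogenase A (LDHA) reduces pyruvate to lactate. R-loops are known to form behind RNA polymerase at transcribed genes, often over GC-rich promoters and near transcript ends.

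The promoter sequences are shown because hybrids at gene starts have been linked to GC-rich DNA with clustered G. All 6 genes matched the RefSeq promoter table, which has 10 windows for them on GRCh38.p14, each with 250 bases before a transcript start and 50 after it. These coordinates are on another build than the hg19 peaks and were not converted. For each gene the most upstream window is printed on the gene's strand, and for ALDOA also the most downstream one. Capitals mark runs of at least 4 G (GGGG on the gene's strand) and of at least 4 C (the same motif on the opposite strand). The windows are GAPDH at chr12:6535014-6535313 (plus strand), ENO1 at chr1:8878637-8878936 (minus), ALDOA at chr16:30064029-30064328 and chr16:30065510-30065809 (plus), PKM at chr15:72231141-72231440 (minus), TPI1 at chr12:6867281-6867580 (plus) and LDHA at chr11:18394313-18394612 (plus).
GAPDH: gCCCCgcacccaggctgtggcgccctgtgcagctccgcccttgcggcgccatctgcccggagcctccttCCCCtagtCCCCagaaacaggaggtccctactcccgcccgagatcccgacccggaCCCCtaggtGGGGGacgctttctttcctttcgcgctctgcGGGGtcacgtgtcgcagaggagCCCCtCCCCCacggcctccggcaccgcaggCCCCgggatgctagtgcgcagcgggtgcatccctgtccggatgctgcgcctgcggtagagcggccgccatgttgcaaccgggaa
ENO1: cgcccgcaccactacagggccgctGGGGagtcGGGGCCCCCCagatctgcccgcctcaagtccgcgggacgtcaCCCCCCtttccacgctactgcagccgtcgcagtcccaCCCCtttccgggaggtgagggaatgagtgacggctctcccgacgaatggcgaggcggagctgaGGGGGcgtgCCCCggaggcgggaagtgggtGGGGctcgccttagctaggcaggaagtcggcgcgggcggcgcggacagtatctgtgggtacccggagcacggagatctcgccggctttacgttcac
ALDOA, most upstream: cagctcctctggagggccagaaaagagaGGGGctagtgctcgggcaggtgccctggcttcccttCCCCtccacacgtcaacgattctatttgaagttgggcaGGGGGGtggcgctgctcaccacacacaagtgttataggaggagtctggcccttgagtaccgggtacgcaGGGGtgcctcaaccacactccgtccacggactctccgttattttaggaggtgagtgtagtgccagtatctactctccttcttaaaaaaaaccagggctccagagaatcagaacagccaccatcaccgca
ALDOA, most downstream: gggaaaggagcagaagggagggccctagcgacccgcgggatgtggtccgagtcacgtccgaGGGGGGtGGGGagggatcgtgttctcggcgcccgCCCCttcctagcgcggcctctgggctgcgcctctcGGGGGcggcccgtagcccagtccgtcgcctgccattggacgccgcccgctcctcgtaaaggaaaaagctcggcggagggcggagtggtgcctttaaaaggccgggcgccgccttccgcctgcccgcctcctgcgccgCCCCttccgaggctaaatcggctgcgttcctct
PKM: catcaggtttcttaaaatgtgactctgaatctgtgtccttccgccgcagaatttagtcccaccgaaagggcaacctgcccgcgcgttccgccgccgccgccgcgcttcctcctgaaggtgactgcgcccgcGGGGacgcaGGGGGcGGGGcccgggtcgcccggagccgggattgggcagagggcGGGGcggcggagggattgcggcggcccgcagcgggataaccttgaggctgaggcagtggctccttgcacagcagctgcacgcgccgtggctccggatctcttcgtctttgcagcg
TPI1: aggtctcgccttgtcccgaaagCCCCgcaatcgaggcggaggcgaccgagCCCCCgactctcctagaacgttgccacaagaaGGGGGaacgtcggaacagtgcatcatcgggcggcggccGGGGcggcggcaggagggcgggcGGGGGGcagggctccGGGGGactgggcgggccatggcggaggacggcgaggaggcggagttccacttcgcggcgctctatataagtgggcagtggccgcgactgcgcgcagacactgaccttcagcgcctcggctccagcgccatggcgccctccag
LDHA: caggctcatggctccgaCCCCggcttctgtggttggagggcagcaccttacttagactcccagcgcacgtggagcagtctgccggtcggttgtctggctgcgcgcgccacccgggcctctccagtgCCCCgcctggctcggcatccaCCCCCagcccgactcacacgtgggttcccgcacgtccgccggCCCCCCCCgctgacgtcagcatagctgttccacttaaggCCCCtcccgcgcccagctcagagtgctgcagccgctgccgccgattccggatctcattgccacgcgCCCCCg

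GC content of the most upstream window was 70.7% for GAPDH, 69.7% for ENO1, 68.0% for PKM, 71.0% for TPI1 and 70.0% for LDHA, against a median of 58.7% over all 35116 windows of the table. ALDOA differed between its starts, with 56.0% in the most upstream window and 70.7% in the most downstream one. The same 5 genes were above the table's median of 0.58 in the ratio of observed to expected CpG, with values from 0.76 (GAPDH) to 0.98 (PKM), while the first ALDOA window had 0.43. GC skew, the excess of G over C on the gene's strand as a share of their sum, was not shared: TPI1 had 0.12, PKM 0.06 and ENO1 0.05, ALDOA had -0.02, GAPDH had -0.13 and LDHA had -0.21. In its most upstream window LDHA lay lower than all but 6.8% of windows, and this printed window holds no run of 4 G but 6 runs of C. The other LDHA window had a skew of -0.07, with 2 runs of G and 0 of C. Runs of G were found in 5 of the 6 most upstream windows, against 75.1% of all windows, and runs of C in 5 of 6, against 73.6%. These are letters in a window, not sites of hybrid formation.

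**Figure D1:**
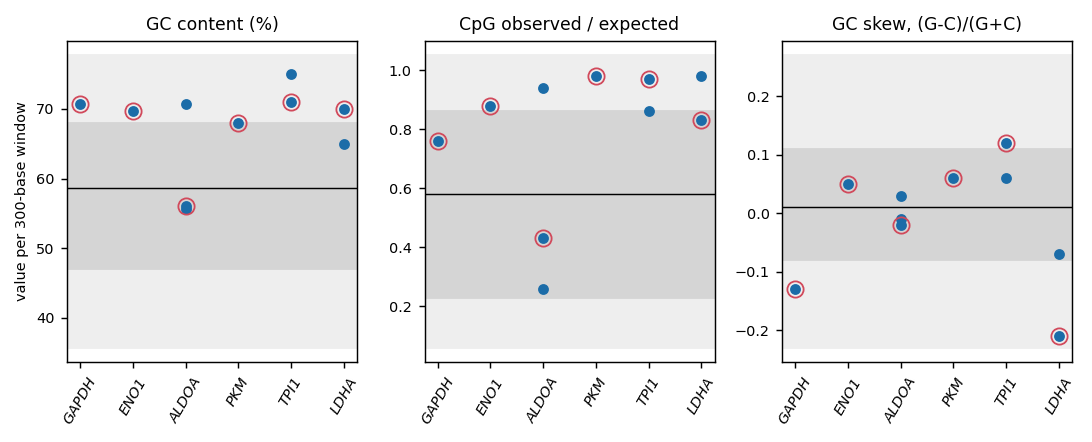
GC content, ratio of observed to expected CpG and GC skew of each RefSeq promoter window of the 6 genes (points; the red ring marks the most upstream window). The line is the median of all 35116 windows, the dark band runs from the 25th to the 75th percentile and the light band from the 5th to the 95th; the ringed ALDOA point lies below the median in GC content (56.0%) and the ringed LDHA point lies lowest in skew (-0.21).

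All 6 genes had a peak within 5 kb in 5 of the lists, that of RNase H being the exception. After RNase H, peaks were listed near ALDOA, PKM and TPI1 and none near GAPDH, ENO1 or LDHA. Among all tiles of 25 kb along the chromosomes, 21.6% held a digest A peak, 23.5% a digest B peak, 23.1% an RNase A peak, 5.65% an RNase H peak, 30.9% a DRIPc peak and 17.4% a K562 peak. The tiles include gene-poor DNA, so they are a low background for expressed genes. They also differ in size from the gene windows, which ran from 13360 bp (TPI1) to 42315 bp (PKM). The number of peaks near the 6 genes was 33 in digest A, 19 in digest B, 29 in RNase A, 6 in RNase H, 33 in DRIPc-seq and 25 in K562. Their median length was longer than that of the whole list by a factor of 1.53 in digest A, 1.98 in RNase A, 1.33 in DRIPc-seq and 2.1 in K562, and about the same in digest B (1.08) and RNase H (0.93). Just inside the 5 kb limit, the farthest peak was an RNase A peak of 6069 bp at 4818 bp from TPI1. Just outside it lay a digest A peak of 4620 bp at 5002 bp from GAPDH and a K562 peak of 2441 bp at 5026 bp from TPI1. Both nearly abut a peak inside the limit. The digest A peak ended at 6638583 and the next began at 6638585. The K562 peak ended at 6971558 and the next began at 6971560.

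**Figure D2:**
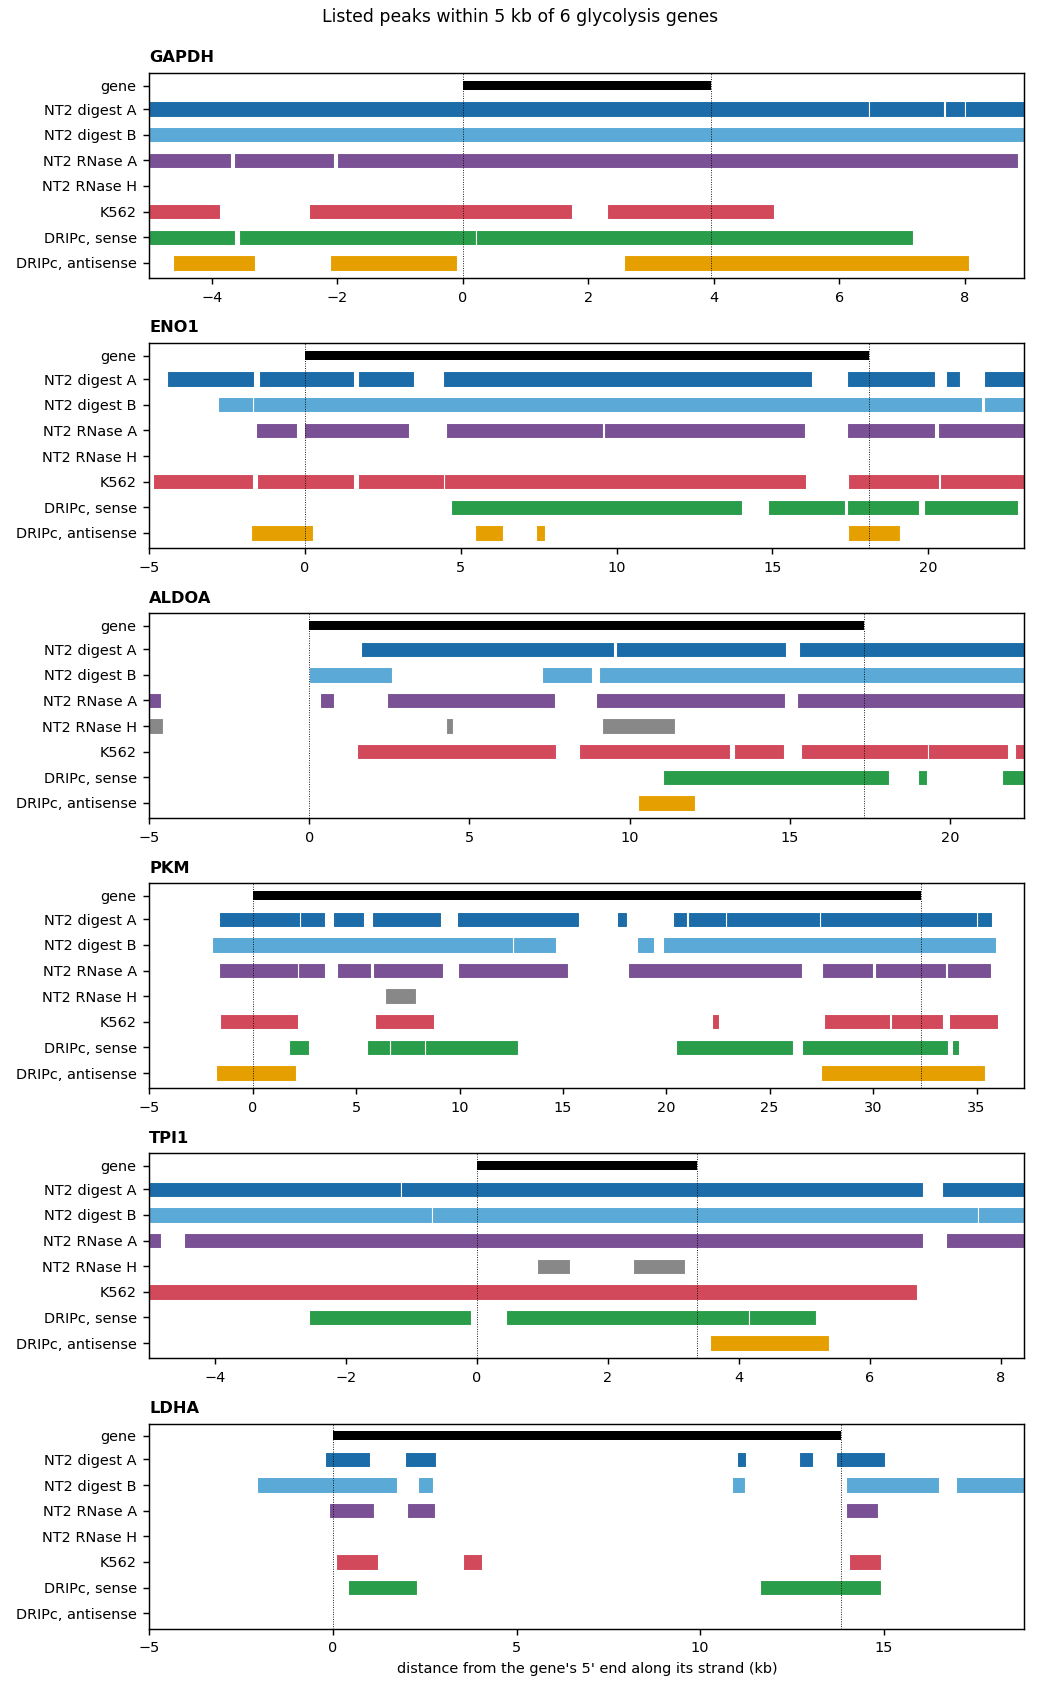
Peaks of each list drawn along the 6 genes, with distance from the gene's 5′ end in kb on the horizontal axis, the gene interval in black and DRIPc peaks split by strand relative to the gene. GAPDH and TPI1 are covered from end to end in the 3 NT2 DRIP lists without RNase H, LDHA has no peak between 4.05 and 10.86 kb, and the K562 row has its longest gap in PKM.

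Positions are given below in kb from the gene's 5′ end along its strand. The start zone is 1 kb to each side of the 5′ end, the end zone 1 kb to each side of the 3′ end, and the body is what lies between. A peak touched the start zone of 5 genes in digest A, 6 in digest B, 6 in RNase A, 1 in RNase H, 5 in DRIPc-seq and 5 in K562. In digest A, DRIPc-seq and K562 the gene without one was ALDOA. The ALDOA interval is 11189 bp longer than the RefSeq gene. With each start placed a RefSeq gene length before the 3′ end, a choice made after seeing the data, these lists had all 6 genes. Tiles of 2 kb, the size of the zone, held a peak in 7.44%, 8.83%, 7.81%, 1.01%, 11.2% and 6.12% of cases in the same order of lists. The end zone was touched in all 6 genes in every list but RNase H, where TPI1 alone was touched, as at the start zone, and the body in all 6 genes in those lists and in 3 genes after RNase H. A single DRIP peak spanned the whole interval of TPI1 in 4 lists, of GAPDH in 3 and of ENO1 in 1.

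Over the 6 intervals, 88.9 kb in all, the share of bases covered by peaks was 76.3% in digest A, 76.8% in digest B, 73.5% in RNase A, 5.96% in RNase H, 58.7% in DRIPc-seq and 55.6% in K562. On the 5 chromosomes that hold these genes, cover by digest A ran from 4.61% (chromosome 12) to 6.53% (chromosome 1), and cover by RNase H from 0.385% (chromosome 15) to 1.28% (chromosome 16). Across genes, digest A cover ran from 18.8% (LDHA) to 100% (GAPDH and TPI1).

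**Figure D3:**
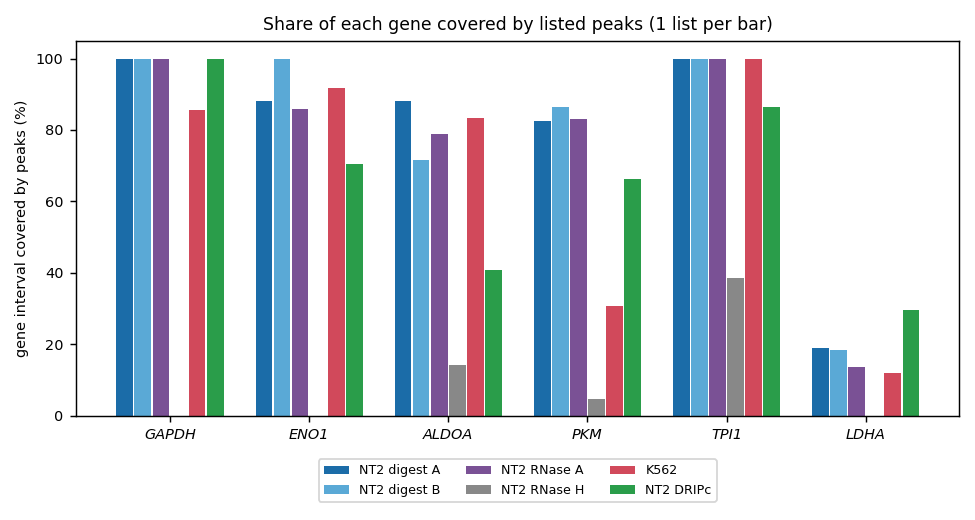
Percent of each gene interval covered by listed peaks (vertical axis), with 1 bar per list and no error bars because each list stands alone. LDHA is low in every list (at most 29.5%), and PKM is lower in K562 (30.8%) than in the 3 NT2 DRIP lists without RNase H (82.6 to 86.5%).

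ALDOA lies on chromosome 16 from 30064411 to 30081741, plus strand, an interval of 17331 bp. Within 5 kb of ALDOA or overlapping it, RefSeq lists the protein-coding LOC112694756 on the same strand, with a length of 17264 bp. Whether this locus shares the first part of the interval was not checked on hg19. Peaks covered 88.0% of the interval in digest A, 71.6% in digest B, 78.9% in RNase A, 14.3% in RNase H, 40.9% in DRIPc-seq and 83.5% in K562. No DRIPc peak was listed before 10.25 kb, on either strand. At the 5′ end of the interval the DRIP lists split. Digest B had a peak from -0.02 to 2.58 kb and RNase A a short one from 0.33 to 0.77 kb, while the first peak began at 1.60 kb in digest A and at 1.49 kb in K562. The interval is 11189 bp longer than the gene in RefSeq GRCh38.p14, which measures 6142 bp, and which end differs was not checked on hg19. A point 6142 bp before the 3′ end, at 11.19 kb, stands in for that start if the 3′ ends of both models coincide. All 6 lists, RNase H included, had a peak across this point. The sense DRIPc peak of 7052 bp (30075454 to 30082505) began at 11.04 kb, just before this point, and ran past the 3′ end, covering 100% of the last 6142 bp. An antisense DRIPc peak of 1793 bp (30074662 to 30076454) lay across the same point.

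Near ALDOA 3 RNase H peaks were listed, of 743, 206 and 2269 bp, more than at any other of these genes. The longest, from 30073549 to 30075817, was covered in full by digest B, RNase A and K562 peaks, to 98.1% by digest A and to 50.9% by DRIPc-seq. The 206 bp peak was covered by digest A, RNase A and K562 and not by digest B or DRIPc-seq. The 743 bp peak, upstream of the gene, was covered only by RNase A, to 92.7%. Whether the signal left after RNase H came from hybrids was not tested.

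TPI1 lies on chromosome 12 from 6976584 to 6979943, plus strand, between USP5 on the same strand and SPSB2 on the opposite strand in the RefSeq order of genes. The whole interval was covered in digest A, digest B, RNase A and K562. In each of these lists a peak ran across the gene and out of it on both sides, measuring 7971 bp in digest A, 8347 bp in digest B, 11279 bp in RNase A and 11741 bp in K562. DRIPc-seq covered 86.5% of the gene, all of it on the gene's strand, with a peak of 3709 bp from 0.45 to 4.16 kb. Another sense peak lay from -2.56 to -0.08 kb, so the first 452 bp of the gene had no DRIPc peak. That upstream peak does not touch TPI1, and USP5 is on the same strand, so strand alone does not assign it. The antisense peak, 1817 bp long, began 198 bp past the 3′ end, on the strand of SPSB2. After RNase H, peaks of 502 bp (0.92 to 1.43 kb) and 794 bp (2.39 to 3.18 kb) covered 38.6% of the interval, the highest RNase H share among the 6 genes. Both lay within peaks of every other list. Merging peaks within 1 kb raised this share to 67.1%, and the longest 50% of the RNase H list left 0%.

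GAPDH lies on chromosome 12 from 6643585 to 6647537, plus strand, downstream of NCAPD2 on the same strand. It was covered to 100% in digest A, digest B and RNase A, to 99.975% in DRIPc-seq and to 85.7% in K562, and no RNase H peak was listed. The peaks reached far beyond the gene in NT2: that of digest A measured 11475 bp, that of digest B 21824 bp and that of RNase A 10863 bp. In K562 the gene was split between a peak of 4197 bp over the start (-2.46 to 1.74 kb) and one of 2652 bp over the end (2.30 to 4.96 kb), with 566 bp between them. Merging peaks within 1 kb closed this gap. Sense DRIPc peaks ran without a break longer than 1 bp from -3.57 to 7.18 kb. A further sense peak lay upstream from -9.53 to -3.63 kb, towards NCAPD2. Strand alone does not assign a peak to one of 2 neighbouring plus strand genes. Antisense DRIPc peaks lay from -4.63 to -3.32 kb, from -2.13 to -0.1 kb and from 2.56 to 8.06 kb, the last of 5500 bp, and the end zone was covered on both strands. RefSeq lists the noncoding RNA GAPDH-DT and IFFO1 as further neighbours.

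ENO1 lies on chromosome 1 from 8921059 to 8939151, minus strand, with the noncoding ENO1-AS1 as a RefSeq neighbour on the plus strand. Digest B covered the interval in full with a peak of 23393 bp, digest A covered 88.1%, RNase A 85.9%, K562 91.7% and DRIPc-seq 70.5%, and no RNase H peak was listed. K562 and digest A shared most of the layout. A peak across the 5′ end ran from -1.49 to 1.56 kb in digest A and from -1.55 to 1.58 kb in K562, and a long peak in the body from 4.41 to 16.29 kb and from 4.47 to 16.07 kb. Of the ENO1 bases covered in digest A, 98.3% were covered in K562, against 70.2% over the 6 genes and 59.3% over the whole digest A list. The 1101 bp between 16.28 and 17.39 kb were without a peak in digest A, RNase A and K562 and were covered in digest B. DRIPc peaks covered 94.0% of that stretch. Stretches of this kind were also found in ALDOA, PKM and LDHA. DRIPc peaks covered 0% of the longest in ALDOA and 100% of the longest in PKM and in LDHA. Any part of the enzymes in this was not tested.

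The strands of ENO1 differed along the gene. Sense DRIPc peaks began at 4.69 kb, close to the body peak of the DRIP lists, and covered 71.9% of the body and 96.3% of the end zone. At the start zone the gene's strand had no peak, and an antisense peak of 1997 bp (8938900 to 8940896) covered 62.6% of it. That peak lay on the strand of ENO1-AS1, and it reached 0.25 kb into ENO1. Antisense peaks of 305 and 919 bp lay in the body, and one of 1666 bp covered 83.2% of the end zone.

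PKM lies on chromosome 15 from 72491370 to 72523684, minus strand, and is the longest of the 6 intervals at 32315 bp. Its transcript is spliced into the M1 and M2 forms of pyruvate kinase. Peaks covered 82.6% in digest A, 86.5% in digest B, 83.2% in RNase A, 4.73% in RNase H, 66.2% in DRIPc-seq and 30.8% in K562. The start zone and the end zone were covered to 100% in every list but RNase H, K562 included. The low K562 value came from the body, with 26.3% covered against 81.5% in digest A. K562 cover of the whole chromosome was 3.21%, against 5.52% in digest A, 8.01% in digest B and 4.63% in RNase A. Among the chromosomes of these genes, K562 cover was lowest on chromosome 15, and so was RNase A cover. K562 cover was also below that of digest A on chromosomes 1, 11 and 12, and above it on chromosome 16 (9.06% against 6.23%). Whether cover of the chromosome bears on PKM was not tested. Between 8.79 and 22.22 kb, a stretch of 13.4 kb, K562 had no peak. Bases covered in all of digest A, digest B and RNase A and not in K562 summed to 13.8 kb, or 42.8% of the interval, and DRIPc peaks of NT2 covered 67.4% of them. In GAPDH the same class made up 14.3%, in LDHA 3.51%, in ALDOA 1.19%, in ENO1 0.326% and in TPI1 0%. Its share over the whole lists is not given. Of the PKM bases covered in digest A alone or with others, 37.3% were covered in K562, against 59.3% over the whole digest A list.

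The single RNase H peak in PKM measured 1529 bp (72515771 to 72517299, 6.38 to 7.91 kb) and lay within peaks of digest A, digest B, RNase A and K562, and DRIPc peaks covered 99.935% of it. DRIPc-seq had 6 sense peaks touching the interval, the first beginning at 1.78 kb. As in ENO1, no sense peak touched the start zone, which was covered to 100% by an antisense peak of 3864 bp (72521607 to 72525470). An antisense peak of 7893 bp (72488292 to 72496184) covered the end zone, which was also covered to 100% on the gene's strand.

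LDHA lies on chromosome 11 from 18415936 to 18429765, plus strand. Its middle held the longest stretch without a peak in any list, at 6.81 kb. PKM had one of 1.82 kb, from 15.79 to 17.61 kb. Within single lists other genes had longer gaps. The longest K562 gap was 13.4 kb in PKM and 9.78 kb in LDHA, and the longest DRIPc gap 10.3 kb in ALDOA and 9.34 kb in LDHA. The share of LDHA covered was 18.8% in digest A, 18.3% in digest B, 13.6% in RNase A, 0% in RNase H, 29.5% in DRIPc-seq and 11.9% in K562. Every peak lay before 4.05 kb or beyond 10.86 kb. A peak touched the start zone from -0.21 to 1.02 kb in digest A, from -2.07 to 1.74 kb in digest B, from -0.10 to 1.11 kb in RNase A and from 0.08 to 1.22 kb in K562. At the 3′ end a digest A peak ran from 13.71 to 15.05 kb, across the last base of the interval, and a K562 peak from 14.05 to 14.92 kb, beyond it. The longest LDHA peak measured 1335 bp in digest A, 3807 bp in digest B, 1201 bp in RNase A, 3275 bp in DRIPc-seq and 1143 bp in K562. With the longest 50% of each list, cover was 8.25% in digest A, 12.6% in digest B, 0% in RNase A and K562 and still 29.5% in DRIPc-seq. DRIPc-seq listed 2 peaks, both sense, of 1882 bp (0.42 to 2.30 kb) and 3275 bp (11.64 to 14.91 kb), and no antisense peak within 5 kb.

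Over all 6 genes, the DRIPc list held 22 peaks on the strand of the gene and 11 on the opposite one. Of these, 15 and 8 touched the gene interval. The share of sense peaks over all genes is not known, since no hg19 annotation was used. These counts and the zone counts below therefore have no background. The plus strand share of the list is not one, as the 6 genes lie on both strands. RefSeq also lists neighbours on the gene's strand at PKM (GRAMD2A) and LDHA (LDHC), and strand does not assign a flanking peak. The list does not say whether its strand is that of the RNA, and "sense" here means the same sign as the gene. Every gene had sense peaks in its body and at its end. In the start zone, sense peaks were found at GAPDH, TPI1 and LDHA, and antisense peaks at GAPDH, ENO1 and PKM. Antisense peaks touched the end zone of GAPDH, ENO1, PKM and TPI1. The first sense base within the interval lay at the 5′ end in GAPDH, at 421 bp in LDHA, 452 bp in TPI1, 1778 bp in PKM, 4687 bp in ENO1 and 11043 bp in ALDOA, where the interval is longer than the RefSeq gene. Of the DRIPc cover in the 6 intervals, 18.0% carried peaks on both strands, against 3.99% of the cover in the whole list, in which 52.3% of peaks were on the plus strand. The genes differed in this. Antisense peaks covered 35.1% of the GAPDH interval, 21.3% of PKM, 11.8% of ENO1, 10.3% of ALDOA and 0% of TPI1 and LDHA.

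**Figure D4:**
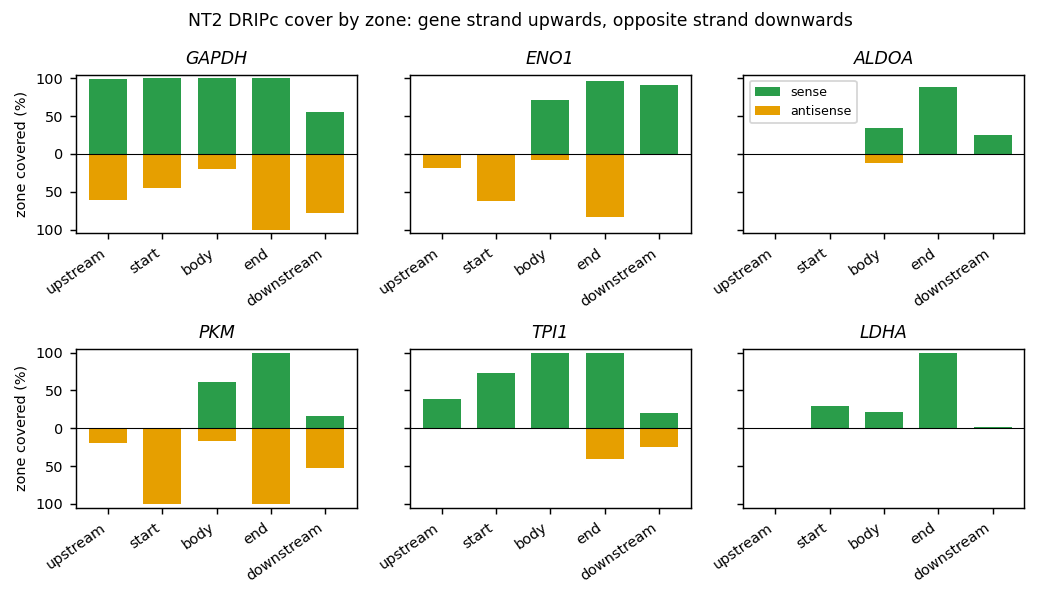
Percent of each zone covered by NT2 DRIPc peaks, on the gene's strand upwards and on the opposite strand downwards, for the flank from 5 to 1 kb upstream, the start zone, the body, the end zone and the flank from 1 to 5 kb downstream. The end zone is covered on the gene's strand to at least 88.2% in all 6 genes, whereas the start zone of ENO1 (62.6%) and PKM (100%) is covered on the opposite strand only.

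The digest A peaks near these genes were sought in the other lists by an overlap of at least 1 bp. Of the 33 peaks, 31 were found in digest B (93.9%), 29 in RNase A (87.9%), 4 in RNase H (12.1%), 27 in DRIPc-seq (81.8%) and 20 in K562 (60.6%). Over all 67126 digest A peaks the shares were 76.8%, 65.5%, 5.09%, 61.4% and 54.7%. When the overlap had to span 50% of the digest A peak, 0 of the 33 were found in RNase H. The share of the whole list under this rule is not given, and no RNase H peak near these genes was longer than 2269 bp. The member peaks share 6 loci and are longer than the list as a whole, and long peaks overlap more readily, so the higher shares are a description. The K562 share lay nearest to its background. Of the 13 digest A peaks not found in K562, 6 lay at PKM, 3 downstream of GAPDH, 3 at LDHA and 1 downstream of TPI1, and none at ENO1 or ALDOA. The 3 near GAPDH (6650061 to 6651263, 6651265 to 6651585 and 6651587 to 6652746) nearly abut and were counted as separate peaks. In the other direction, 24 of 25 K562 peaks near these genes were found in digest A (96.0%), against 67.3% of the whole K562 list. The exception was a 504 bp peak at 3.55 to 4.05 kb in LDHA. All 33 DRIPc peaks near the genes touched a peak in each of digest A, digest B, RNase A and K562. In the whole DRIPc list, 45.6% touched a digest A peak, 54.5% a digest B peak, 39.8% an RNase A peak and 32.0% a K562 peak. Of the 6 RNase H peaks near the genes, 5 touched a peak in digest A, 4 in digest B and 6 in RNase A. In DRIPc-seq 4 did so, and in K562 5. Over all 8998 RNase H peaks the shares were 38.2%, 29.4%, 64.5%, 19.2% and 36.0% in the same order.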

How the data were processed

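Each peak list was used as deposited by the authors, as start and end positions in bp without heights, fold values or p-values. Per the submitters' processing notes, the tools included Bismark 0.7.7, TopHat2 2.0.5 and BWA 0.6.1, with no step named for each, and hg19 was among the builds. The peak caller, its threshold and any control were not given in the sources used here. Gene intervals were hg19 positions given with the gene names, with strands from the RefSeq promoter table. Other glycolysis genes were not placed, since no hg19 annotation was used. Overlap, cover and zones were computed with Python 3.11.15, numpy 2.4.6 and pandas 2.3.3, and overlap counts were checked with bedtools 2.31.1 and tested on simulated lists. Background shares come from all tiles of each chromosome, ended at its last listed human peak, or from the whole digest A list. All 6 genes were named in every list and none was chosen by its values. Counts and cover include every peak within 5 kb, single peaks are named where a comparison turns on them, and no test was made. The genes, lists and comparisons were chosen with earlier results of these data known. Mouse, RNA-seq and MethylC-seq samples were not used here.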

Additional observations from a re-analysis of the deposited data

How the results depend on the processing

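With 1 list per group, no replicate could be left out. No paired analysis was possible because the DRIPc replicates share 1 list and no other human list carries a replicate number. The number of genes with a peak within 5 kb, and of genes with sense or antisense DRIPc peaks, stayed within 1.5 times under every alternative run. Start zone counts did so in each list but RNase H, whose count of 1 became 0 with zones of 500 bp, with 50% of the zone covered and with the longest 50% of peaks. With the start placed a RefSeq gene length before the 3′ end, an alternative chosen after seeing the data, that count was 1. In every other list the count was then 6, ALDOA included, against 5 in the main run for digest A, DRIPc-seq and K562. Cover of the 6 intervals after merging peaks within 1 kb was 81.5% (digest A), 78.2% (digest B), 77.8% (RNase A), 7.04% (RNase H), 60.7% (DRIPc-seq) and 58.0% (K562). With the longest 50% of each list it was 73.3%, 68.1%, 67.6%, 4.27%, 54.8% and 53.4% in the same order. When an overlap had to span 50% of the digest A peak, 57.6% were found in DRIPc-seq and 0% in RNase H. With digest B peaks in place of digest A, 63.2% were found in DRIPc-seq. Shares of the whole list under these settings are not given. The causes of these moves were not tested. Unknown depth limits every statement on a missing peak.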

Other observations

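Promoter windows of other genes of sugar uptake, glycolysis and lactate export were examined in the same RefSeq table, by sequence only. Of 17 genes listed, 15 were matched: SLC2A1, HK1, HK2, GPI, PFKL, PFKM, PFKP, ALDOC, PGK1, PGAM1, ENO2, ENO3, PKLR, LDHB and SLC16A3. The GC content of their most upstream windows ran from 37.0% (PFKM) to 78.3% (PFKL), with a median of 66.0%, and 10 of 15 were above the median of all windows. Runs of at least 4 G on the gene's strand were found in 11 of the 15, against 75.1% of all windows, and runs of C in 14 of the 15, against 73.6%. In these windows PFKP, a phosphofructokinase gene, had 14 runs of G, and HK1, HK2, GPI and PFKM had 0. Some of the genes have further windows, which are not described here. HK1 and PFKM have 7 windows each, SLC16A3 has 5, PFKP has 4, and HK2, ENO3 and PKLR have 2 each. PFKP also had the highest GC skew of the list, 0.40, and ENO2, the neuronal enolase gene, the lowest, -0.25.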
